A study of Mus musculus with 12 samples.

Results

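Plasmablasts made up 2 of the 12 RNA-seq libraries of the series. Each gene was read in them against the other 10 libraries, 2 from each of 5 other B cell stages. The groups were taken from the sample labels, so no measured value chose them. B cells of C57BL/6 mice were isolated by removal of other spleen cells, stained with a division dye and cultured with lipopolysaccharide (LPS), a bacterial product that activates B cells through Toll-like receptors. The other stages were untreated naive cells (Naive), undivided cells at 3, 10 and 33 h after LPS (B3, B10 and B33), and expanded B cells sorted at day 4 as CD22+ CD138- (Ab). Plasmablasts (PB) were sorted at the same day 4 as CD138+ CD22-. Per the methods, Naive cells were sorted from spleen as IgM+ IgDhi. Cells of B3, B10 and B33 were cultured at a higher density than those of Ab and PB. Stage and culture density cannot be told apart where PB is set against B3, B10 or B33. LPS was the only stimulus named, with no T cell help, and the series text calls the 2 libraries of each stage biological replicates without saying whether PB and Ab libraries of 1 number came from 1 culture. The p-values given here therefore measure the spread between these libraries. The question was which transcripts set plasmablasts apart from every earlier or sister population.

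Plasmablasts are dividing antibody-secreting cells, the step between an activated B cell and a resting plasma cell. Secreted antibody chains enter the endoplasmic reticulum (ER) through the Sec61 channel, are folded by chaperones and disulphide isomerases, receive N-linked sugars, are assembled with J chain into IgM polymers, and leave in COPII vesicles for the Golgi. Chains that fail to fold are pulled back out and degraded. The regulators Blimp-1 (Prdm1), Irf4 and Xbp1 are known to install this program, whereas Pax5, Spib and Ciita maintain antigen receptor signalling and antigen presentation in B cells.

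A gene was called higher or lower where edgeR's quasi-likelihood fit to all 12 libraries placed PB beyond 1.5-fold of the unweighted mean of the other 5 stages (glmTreat, Benjamini-Hochberg adjusted p under 0.05). Since a mean can hide a stage that matches PB, each gene was also placed by order, as above all or below all where both PB libraries lay beyond the other 10 in CPM (the gene's share of the counts of a library, scaled to a common total with TMM). Of 12750 genes tested, 2969 (23.3%) were called higher and 2336 (18.3%) lower. Counts of list members below are to be read beside these shares. Both PB libraries were above all others for 2465 genes (19.3%) and below all others for 2148 (16.8%). The genes described here as higher or lower than in every other library met both conditions, which left 2072 genes higher (16.3%) and 1609 lower (12.6%). Among the remaining calls, 897 higher and 727 lower genes overlapped at least 1 other library, and 393 genes above all and 539 below all did not pass the fold test. The split of calls was 56% higher with TMM and 38.8% higher when libraries were scaled by their totals alone, which moved the median log2 fold change of all genes from -0.03 to -0.32.

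**Figure D1:**
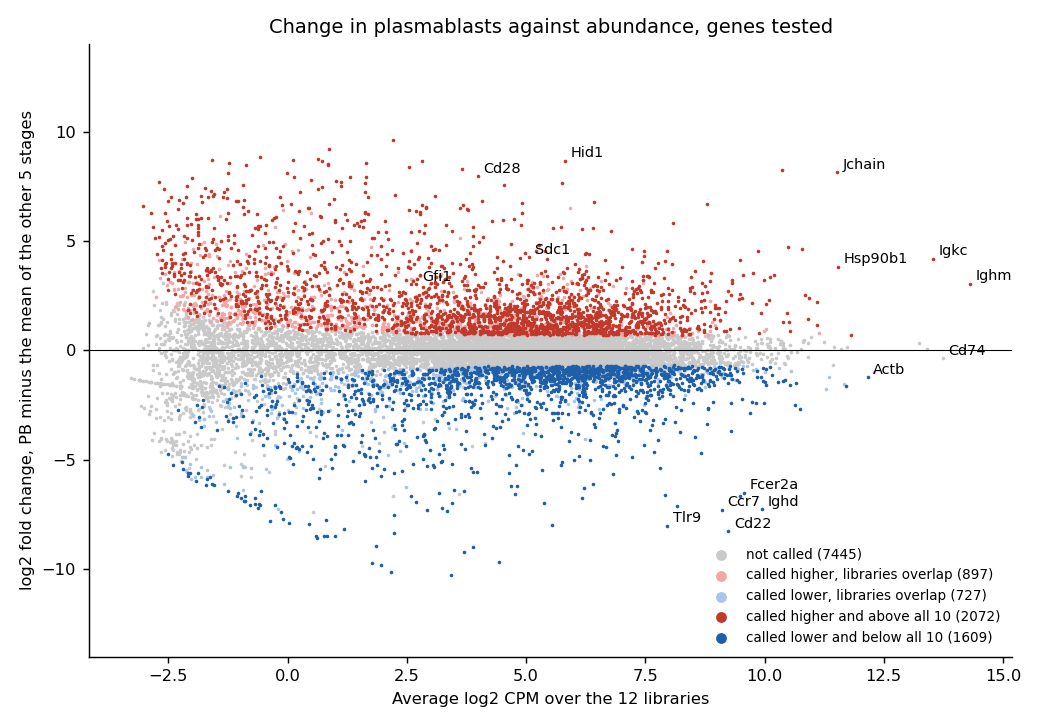
The log2 fold change of PB against the mean of the other 5 stages (vertical axis) is plotted against the average log2 CPM over the 12 libraries (horizontal axis) for the 12750 genes tested. Dark red points are the 2072 genes called higher and above all 10 other libraries, dark blue points the 1609 called lower and below all, pale points the calls whose libraries overlap, and grey points the genes not called. Ighm, Igkc, Jchain and Hsp90b1 lie at the abundant end of the higher genes, and Cd22, Tlr9 and Ccr7 among the abundant genes that fell most.

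Membership was set by the values themselves at its limit. The long non-coding RNA 1110019D14Rik was just inside the higher group, with 1.78 and 1.06 CPM in PB replicates 1 and 2 and at most 1.06 in another library, where the lower PB library led by less than the rounding, and it was not called without PB replicate 1 (0.99, adjusted p = 0.109 for 1110019D14Rik). Zfp967 was just outside, at 0.551 and 0.635 CPM in PB and 0.551 in an Ab library. On the other side, Phc1 at 17.4 and 15.2 CPM was just inside and Anp32b at 244 and 238 CPM just outside, the latter touching a Naive library at 244 CPM. Most members lay further away. Over the 2072 higher genes the lower PB library exceeded the highest other library by a median of 1.65-fold (quartiles 1.28 and 2.53), 758 genes were separated by at least 2-fold, 242 by at least 4-fold and 62 by at least 10-fold. The 1609 lower genes had a median separation of 1.38-fold (quartiles 1.18 and 1.85), with 388, 172 and 82 genes past the same sizes. These counts describe the choice and carry no test.

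The stage closest to PB was most often its day 4 sister population. For 1167 of the 2072 higher genes (56.3%) the other stage with the highest mean CPM was Ab. It was Naive for 398 (19.2%), B3 for 239 (11.5%), B33 for 139 (6.71%) and B10 for 129 (6.23%). Among the 1609 lower genes the other stage with the lowest mean CPM was Ab for 796 (49.5%) and Naive for 344 (21.4%). In direct comparisons within the same fit, 1776 genes (13.9% of those tested) were higher and 1553 (12.2%) lower in PB than in Ab. The higher genes comprised 1946 protein-coding genes and 67 long non-coding RNAs, and the lower genes 1534 and 47. A stage other than PB was at the floor, at most 3 counts in both of its libraries, for 329 higher genes, and PB itself was at the floor for 133 lower genes. Fold changes of such genes depend on the prior count, and none is given a standard error here.

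The libraries held 23026619 to 60585587 counts (median 37839944), with 32263933 and 39511515 in PB, so that 3 counts correspond to 0.0495 to 0.13 CPM. Replicates of PB differed by an SD of 0.354 in log2 ratio over genes, within the 0.303 to 0.529 of the other stages, and the TMM factors of PB (0.852 and 0.839) were below those of the other libraries (0.865 to 1.12). Both Naive libraries carried transcripts of myeloid and erythroid cells. Lyz2 had 5032 and 1642 counts there and Hba-a1 3372 and 1933, against at most 2 and 36 in the other 10 libraries. Itgam and Adgre1 of the myeloid list did not follow Lyz2. Itgam had 335 and 152 counts in Naive and 1016 and 767 in Ab. Adgre1 had 410 and 316 counts in Naive and 548 and 470 in Ab. As these are bulk libraries, fewer cells of a type and less RNA per cell cannot be told apart.

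The markers fitted the label. Sdc1, which encodes the CD138 used in the sort, was at 145 and 147 CPM in PB, at 15.1 to 26.1 in Naive and B3, and at 1.35 to 7.87 in the remaining libraries (Entrez gene 20969, chr12:8771396-8793716 in mm10). Cd22, the antigen that the gate excluded, was at 1.86 and 1.59 CPM in PB and at 165 to 1786 elsewhere. Both follow from the gate and are no finding. Gene list counts below include Sdc1 and Cd22, and also the markers Jchain, Cd28 and Gfi1. Jchain, which links IgM monomers into polymers (Entrez gene 16069, chr5:88519809-88527897), was at 17270 and 16350 CPM in PB, 609 and 781 in Ab, and 15.2 to 68.9 in the 8 earlier libraries (log2 fold change 8.13 ± 0.20 SE, edgeR adjusted p = 1.4e-10). Cd28, a costimulatory receptor best known on T cells and also described on plasma cells (Entrez gene 12487, chr1:60746388-60773359), was at 87.8 and 99.8 CPM in PB, 2.58 and 4.44 in Ab, and at most 0.62 in the 8 earlier libraries (7.96 ± 0.19 SE, adjusted p = 3.3e-12). Gfi1, a transcriptional repressor (Entrez gene 14581, chr5:107716655-107725805), was at 26.4 and 22.9 CPM in PB and 1.51 to 4.91 elsewhere (log2 fold change 3.01 ± 0.13 SE, edgeR adjusted p = 6.2e-10). In all 4 marker genes the 2 PB libraries stood clear of the other 10.

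The 2072 higher genes took 37.6% and 37.4% of all counts in PB replicates 1 and 2. The same genes took 16.2% and 17.3% in Ab, 10.5% and 11.6% in B33, and 7.71% to 9.76% in the 6 libraries of Naive, B3 and B10. Much of this sat in few genes, since the 10 members with the most counts took 14.3% and 13.9% in PB and 0.909% to 4.25% elsewhere. Without immunoglobulin constant genes and Jchain, 2062 genes still held 26.2% and 26.4% in PB and 7.09% to 14% in the other libraries. The 1609 lower genes fell to 4.87% and 4.81% of counts in PB from 12% to 21.4% elsewhere, with Ab at the bottom of that range and B3 at its top. Because the genes were chosen on the same libraries, these shares describe the choice.

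PB libraries were also the least even. It took 369 and 362 genes to reach 50% of all counts in PB, against 448 to 767 in the other 10 libraries, where Naive was nearest to PB. Ighm was the most abundant gene in both PB libraries, at 5.69% and 4.92% of counts, and the mitochondrial gene COX1 was the most abundant gene in each of the other 10.

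**Figure D2:**
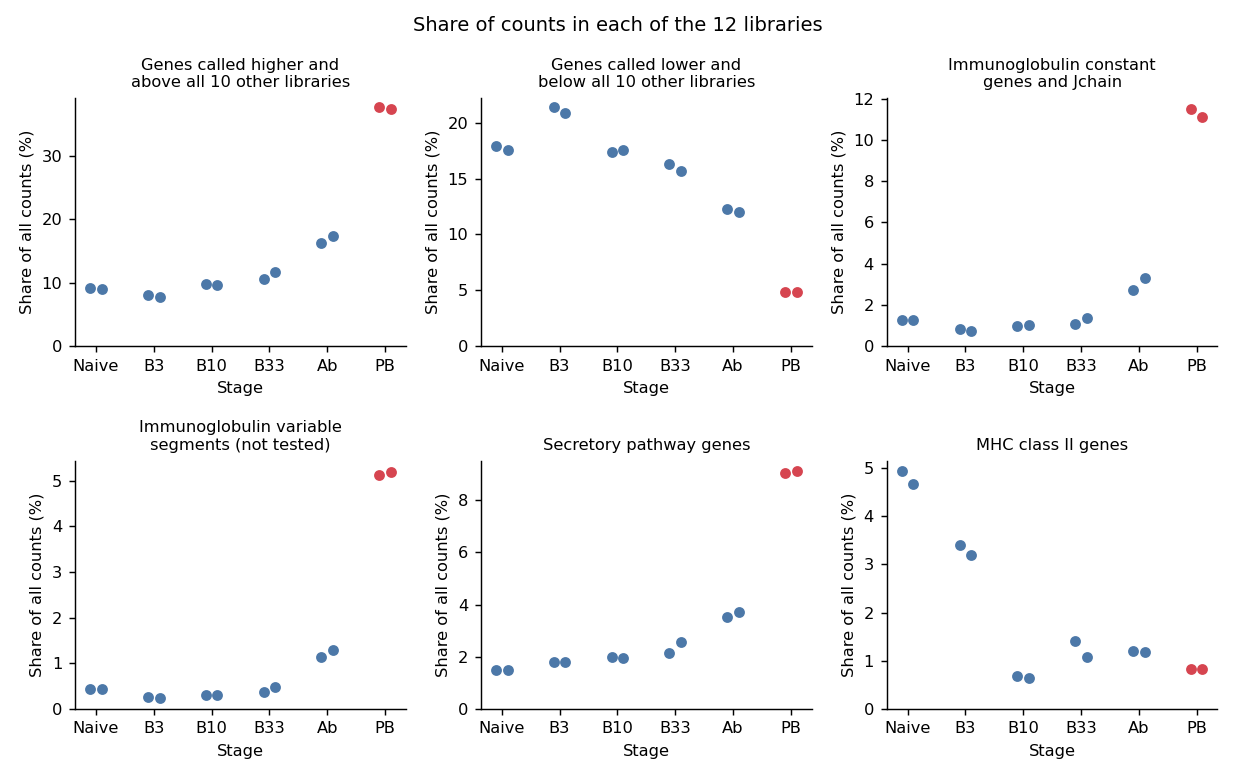
Each point is 1 library, with the 6 stages on the horizontal axis and the share of all counts in percent on the vertical axis, PB in red and the other stages in blue. The panels give the genes called higher and above all, the genes called lower and below all, and the gene lists named in their titles. PB stands above the other 10 libraries in the first panel (37.6% and 37.4%) and below them in the second (4.87% and 4.81%), whereas for MHC class II genes the PB libraries lie above B10.

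Immunoglobulin transcripts were the largest block. The 13 immunoglobulin constant genes with Jchain took 11.5% and 11.1% of counts in PB, 2.71% and 3.31% in Ab, 1.28% in both Naive libraries and 0.733% to 1.35% in the other 6. The mean of 11.3% in PB exceeded that of the other libraries, 1.45%, with the smallest p that 2 against 10 libraries allow (two-sided exact permutation test over 66 arrangements, p = 0.0303, adjusted over 3 shares p = 0.0455). Among the 12 members tested, 11 were called higher, 10 of them above all, and 1 lower, with a median log2 fold change of 3.41 against -0.03 for all genes tested.

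Ighm, the heavy chain of IgM, was at 77760 and 68580 CPM in PB, 18120 and 21500 in Ab, and 5355 to 10270 in the 8 earlier libraries (log2 fold change 3.05 ± 0.08 SE, edgeR adjusted p = 1.4e-11). Igkc, the kappa light chain, rose further, from at most 8242 CPM outside PB to 51900 and 57300 CPM (4.20 ± 0.09 SE, adjusted p = 1.8e-12). Per length, Igkc reached 170600 RPKM and Ighm 49070 RPKM as the mean level in PB, against 22700 and 13280 RPKM in Ab and 9345 and 5456 RPKM in Naive. The 3 lambda genes differed less than Igkc, with Iglc1 at 1634 and 1733 CPM and a difference of 3.16, Iglc2 at 707 and 777 CPM and a difference of 2.56, and Iglc3 at 460 and 528 CPM and a difference of 1.81 on the log2 scale. All 3 had their PB libraries above every other library.

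Of the switched isotypes, Ighg3 and Ighg2b were already abundant in Ab. Ighg3, the IgG3 heavy chain, was at 4770 and 6487 CPM in PB, 1908 and 2646 in Ab and 1.06 to 16.6 in the earlier libraries, so that its log2 fold change of 8.26 against the mean was 1.31 ± 0.23 SE against Ab alone (edgeR adjusted p = 0.0067). Ighg2b showed the same order, with 1890 and 2048 CPM in PB and 561 and 707 in Ab. Ighg1 overlapped Ab, at 161 and 231 CPM in PB against 120 and 210, and its difference from Ab was 0.24 ± 0.27 SE (adjusted p = 1). Igha was low and uneven, at 26.3 and 47.7 CPM in PB and 8.84 and 8.13 in Ab, and Ighg2c was at 28.2 and 25.5 CPM in PB and 6.08 and 6.81 in Ab. Ighd, the heavy chain of the IgD of resting B cells, was the member that fell, to 2.67 and 4.02 CPM from 2902 and 2917 in Naive, with 19.4 and 23.1 in Ab (log2 fold change -7.26 ± 0.34 SE, adjusted p = 1.9e-08). The IgG genes resemble each other, as do the lambda genes, and how the authors' counting divided shared reads between them was not tested.

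Besides immunoglobulin, the members that took the most counts in PB were ER genes. Hsp90b1, the ER form of HSP90, was at 11740 and 12410 CPM in PB, 2810 and 3096 in Ab and 429 to 1672 in the earlier libraries (log2 fold change 3.81 ± 0.10 SE, edgeR adjusted p = 1.2e-11). Mzb1, a chaperone cofactor that aids IgM assembly, was at 7831 and 8074 CPM in PB against at most 1568 elsewhere (4.62 ± 0.09 SE). Txndc5, a disulphide isomerase, was at 7138 and 7010 CPM in PB against at most 695 elsewhere (4.73 ± 0.08 SE), which put a 10.1-fold gap between the lower PB library and the next library. Hspa5 (BiP), the chief chaperone of the ER, rose from an already abundant level, with 6146 and 6039 CPM in PB and 641 to 2193 elsewhere (2.20 ± 0.07 SE). Lars2, a mitochondrial leucyl-tRNA synthetase, was at 5165 and 6273 CPM in PB but varied from 288 to 2597 between the B3 replicates. Its log2 fold change of 2.41 carried an SE of 0.64 (adjusted p = 0.029), and against Ab it was not called (adjusted p = 0.53). Leaving out 1 library ended the call of Lars2 for 7 of the 12, and without PB replicate 2 it stood at 2.30 (edgeR adjusted p = 0.128).

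A list of 51 tested genes of ER translocation and folding rose nearly as a whole. In it 49 were called higher, 48 of them above all, and none lower, with a median log2 fold change of 2.51 against -0.03 for all genes tested. Against Ab alone 44 were higher, with a median of 1.69. Fkbp11, a prolyl isomerase of the secretory pathway, rose most, to 168 and 161 CPM from 0.167 to 10.1 (6.26 ± 0.16 SE, edgeR adjusted p = 2.3e-11). Sdf2l1, a cofactor of BiP, reached 735 and 710 CPM from at most 190, and Sec11c, a catalytic subunit of the signal peptidase, 1788 and 1891 CPM from at most 328. Sec61a1, the channel itself, was at 1933 and 1965 CPM against 193 to 656. The 2 members not called were Canx, the lectin chaperone calnexin, at 784 and 764 CPM in PB and up to 905 in B3, and Sec11a, the other catalytic subunit of the signal peptidase, with a log2 fold change of 0.66. Sec11a was called at 0.68 when B3 replicate 1 was left out (adjusted p = 0.0415).

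The promoters of the folding genes are shown because they can be searched for the ERSE, a sequence element known from ER stress promoters. Its letters, CCAAT followed by 9 bases of any kind and CCACG, were searched on both strands in the 250 bases before the RefSeq gene start (GRCm38.p6, the mm10 assembly), for which 9919 of the 12750 tested genes had an entry. It was found before 16 genes (0.161%), and in 37 of all 32817 promoter windows (0.113%). Among the higher genes 10 of 1609 with an entry held it (0.622%), among the lower genes 3 of 1287 (0.233%), and among all other genes 3 of 7023 (0.0427%). In the list of ER translocation and folding it was found before 8 of 39 genes (20.5%) and in that of ER-associated degradation before 2 of 15 (13.3%). Among N-glycosylation genes 1 of 27 held it (3.7%). None of 11 genes of the unfolded protein response and ATF4 held it. The same was true of 37 vesicle traffic genes, 25 proteasome genes and 53 ribosomal protein genes. A match is a run of letters and no site of binding.

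The 10 higher genes with the element were Alg12, Calr, Creld2, Derl3, Dnajc3, Ero1b, Hsp90b1, Hspa5, Pdia6 and Syvn1. Hsp90b1 held 2 copies, and Creld2 and Alg12 face away from each other and share 1 copy, at chr15:88819520-88819538. The sequences below are printed 5′ to 3′ on the strand of the gene, end before the first annotated exon, and show the element in capitals, written as CGTGG at its left end where it lies on the opposite strand.
Hsp90b1 (chr10:86705510-86705694, minus strand): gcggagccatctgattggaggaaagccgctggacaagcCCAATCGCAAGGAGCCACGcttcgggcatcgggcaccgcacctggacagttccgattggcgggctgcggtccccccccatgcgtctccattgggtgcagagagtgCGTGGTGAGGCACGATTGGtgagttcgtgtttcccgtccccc
Pdia6 (chr12:17266339-17266544, plus strand): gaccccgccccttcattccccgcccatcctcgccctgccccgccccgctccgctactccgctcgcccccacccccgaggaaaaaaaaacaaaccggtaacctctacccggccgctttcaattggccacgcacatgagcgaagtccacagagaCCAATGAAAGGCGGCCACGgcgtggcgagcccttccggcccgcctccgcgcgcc
Derl3 (chr10:75893148-75893397, plus strand): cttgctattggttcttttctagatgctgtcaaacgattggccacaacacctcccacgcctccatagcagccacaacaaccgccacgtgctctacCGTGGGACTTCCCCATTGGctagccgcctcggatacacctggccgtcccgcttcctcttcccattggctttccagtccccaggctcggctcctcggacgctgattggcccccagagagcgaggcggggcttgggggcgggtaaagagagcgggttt
Creld2 (chr15:88819396-88819645, plus strand): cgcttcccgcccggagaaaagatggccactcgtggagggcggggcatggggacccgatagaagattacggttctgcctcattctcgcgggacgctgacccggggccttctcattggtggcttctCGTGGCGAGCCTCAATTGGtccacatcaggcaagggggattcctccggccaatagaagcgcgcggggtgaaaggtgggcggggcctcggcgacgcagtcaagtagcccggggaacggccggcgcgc
Dnajc3 (chr14:118937682-118937931, plus strand): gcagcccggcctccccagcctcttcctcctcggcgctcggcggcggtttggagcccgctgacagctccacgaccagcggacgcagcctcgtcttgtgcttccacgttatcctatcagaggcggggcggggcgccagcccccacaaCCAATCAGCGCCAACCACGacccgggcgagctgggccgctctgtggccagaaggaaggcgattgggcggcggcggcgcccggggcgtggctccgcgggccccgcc

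The element alone is given for a further set of genes, 5′ to 3′ on the strand of the gene. For Calr and Ero1b it lies on the opposite strand and starts with CGTGG, so their spacers do not align with the others. That of Hspa5 lies beyond the first base of an annotated exon in its window.
Hspa5 (chr2:34772025-34772043): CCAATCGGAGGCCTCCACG
Syvn1 (chr19:6046532-6046550): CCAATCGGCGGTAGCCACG
Calr (chr8:84847075-84847093): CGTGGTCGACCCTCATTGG
Ero1b (chr13:12565682-12565700): CGTGGTCCCGCCTCATTGG
Canx (chr11:50325800-50325818): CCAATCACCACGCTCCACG

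The genes with the element varied widely in their change. Derl3, which passes misfolded proteins out of the ER, was at 506 and 555 CPM in PB, 76.2 and 96.1 in Ab and 2.62 to 36 in the earlier libraries (log2 fold change 5.48 ± 0.12 SE, edgeR adjusted p = 2.8e-12). Creld2, an isomerase-like ER protein, was at 1097 and 1141 CPM in PB against at most 251 (3.93 ± 0.09 SE), and its neighbour Alg12, a mannosyltransferase, at 28.2 and 29.1 CPM against at most 19.4 (1.0 ± 0.08 SE), a call lost when libraries were scaled by totals alone (adjusted p = 0.0571). Dnajc3, a BiP cochaperone, reached 1495 and 1508 CPM from at most 326, and Pdia6, a disulphide isomerase, 4265 and 4172 CPM from at most 1122. Canx held the element and was not called, and Adcy3, an adenylyl cyclase, Hnrnpa3 and Pan2 held it and were called lower, Adcy3 with 6.44 and 5.75 CPM in PB against at least 10.9. Without PB replicate 1 Hnrnpa3 was at -0.69 (adjusted p = 0.108) and Pan2 at -0.68 (0.208), and neither was called. The shorter element TGACGTGG was found before 27 of 1609 higher genes (1.68%), 7 of 1287 lower genes (0.544%) and 51 of 7023 others (0.726%).

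Degradation, glycosylation and vesicle genes had smaller medians. Of 19 tested genes of ER-associated degradation, 14 were called higher, all 14 above every other library, and 5 not called (median log2 fold change 2.09). Edem1, a mannosidase-like protein that hands misfolded glycoproteins to the degradation machinery, was at 3116 and 3314 CPM in PB against 101 to 515 elsewhere, and Edem2 at 943 and 994 CPM against 33.3 to 129. The cytosolic partners of the pathway moved less, such as Vcp, the ATPase that extracts the chains, which had 381 and 418 CPM in PB and at most 346 elsewhere and did not pass the fold test (0.63 ± 0.07 SE, edgeR adjusted p = 0.22).

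Of 33 tested genes of N-glycosylation, 26 were called higher, 25 of them above all, and none lower (median 1.57). Rpn1 and Ddost, subunits of the oligosaccharyltransferase that attaches the sugar, were at 3696 and 3864 CPM and at 2313 and 2339 CPM in PB, against at most 896 and 528 elsewhere. At the other end Dpm2, a subunit of dolichol-phosphate mannose synthase, had 22.4 and 23.7 CPM in PB and 17.8 to 34.4 elsewhere, with a difference of 0.00 ± 0.10 SE on the log2 scale.

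In the vesicle list, 35 of 41 tested genes were called higher, 34 of them above all, and 1 lower (median 1.46). Sec24d, a COPII cargo adaptor, was at 386 and 399 CPM in PB, 78.8 and 102 in Ab and 1.38 to 17.3 in the earlier libraries (log2 fold change 5.59 ± 0.13 SE, edgeR adjusted p = 1.2e-11). Its relative Sec24b was the gene that fell, to 57.8 and 66.9 CPM from 72.9 to 200 (-0.83 ± 0.08 SE, adjusted p = 0.0026). Without PB replicate 1 Sec24b was at -0.69 and not called (edgeR adjusted p = 0.13). Lman1, a cargo receptor for glycoproteins, reached 874 and 898 CPM from at most 248. Kdelr3, which returns ER residents from the Golgi, was at 10.6 and 11.6 CPM in PB and at most 0.99 elsewhere, with 3 stages at the floor.

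Together these 4 lists hold 148 genes in the deposited table. They took 9.04% and 9.14% of counts in PB, 3.53% and 3.73% in Ab and 1.47% to 2.57% in the earlier libraries. The means of 9.09% and 2.25% differed with p = 0.0303 (two-sided exact permutation test, adjusted p = 0.0455), again the smallest value that this design allows. As the lists were chosen with earlier results of these data known, this p too is a description. Of the 4 lists, translocation and folding took the largest share, 5.87% and 5.88% in PB against at most 2.19% elsewhere.

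**Figure D3:**
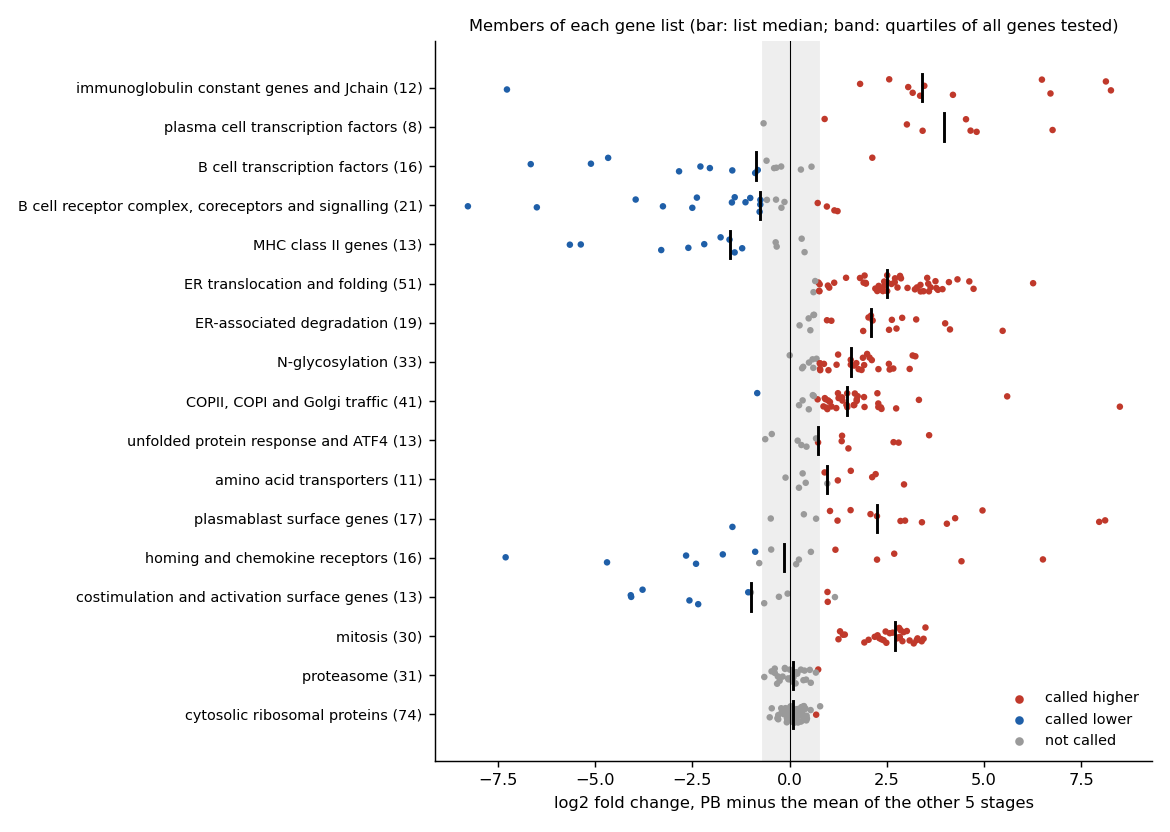
Each point is a tested gene of the named list, placed by its log2 fold change of PB against the mean of the other 5 stages, red where called higher, blue where called lower and grey where not called. Black bars are list medians, the grey band spans the quartiles of all genes tested, and the number of genes tested stands in brackets. The 4 secretory lists lie to the right of the band (medians 2.51, 2.09, 1.57 and 1.46), ribosomal proteins and the proteasome within it (0.10 in both), and MHC class II genes to its left (-1.54).

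The stress sensors and their targets did not move as a block. Of 13 tested genes of the unfolded protein response and the ATF4 pathway, 7 were called higher, 6 above all, and 6 not called (median 0.73). Over all genes tested 23.3% were called higher. Ern1, which encodes the sensor IRE1 that splices Xbp1 mRNA, was at 87.2 and 77.5 CPM in PB against 5.28 to 26.3 elsewhere (log2 fold change 2.80 ± 0.11 SE, edgeR adjusted p = 2.3e-10). Ddit3, which encodes the stress-induced factor CHOP, was at 10.8 and 10.1 CPM in PB and 3 to 22.1 elsewhere, and its log2 fold change was 0.21 ± 0.16 SE (adjusted p = 1). Asns, asparagine synthetase, was at 136 and 165 CPM in PB and already at 102 and 113 CPM in Ab. Atf4 itself was at 252 and 226 CPM in PB, within the range of the other stages and below B3. Its call as higher was lost without any of 6 single libraries (0.69 and adjusted p = 0.178 without PB replicate 1), with library totals alone (0.44) and without the Naive stage (0.32, adjusted p = 1).

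Amino acid transporters were mixed in the same way, with 6 of 11 tested genes called higher, 4 above all, and 5 not called (median 0.97). That compares with 23.3% called higher among all genes tested. Slc3a2, the shared heavy chain of several transporters (CD98), was at 1465 and 1633 CPM in PB against 138 to 265 in all other libraries (2.94 ± 0.08 SE, edgeR adjusted p = 9.1e-12). Its partner Slc7a5 had 506 and 532 CPM in PB and up to 728 in B3, and its call as higher was lost with library totals alone (0.61, adjusted p = 0.346) and without the Naive stage (0.26, adjusted p = 1). Slc7a1, an arginine transporter, was at 318 and 335 CPM in PB and 164 to 918 elsewhere, with a log2 fold change of -0.10.

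Among 8 regulators listed for plasma cells, 7 were called higher, 6 of them above all, and the median was 3.98. Xbp1, the factor that drives ER expansion, was at 4017 and 4390 CPM in PB, 767 and 875 in Ab and 51.5 to 303 in the earlier libraries (log2 fold change 4.53 ± 0.18 SE, edgeR adjusted p = 6e-09). Prdm1, encoding Blimp-1, was at 541 and 602 CPM in PB, 229 and 249 in Ab and 2.44 to 59 before, so its difference from Ab (1.26 ± 0.21 SE, adjusted p = 0.0064) was smaller than that of Xbp1 (2.36 ± 0.29 SE). The difference between the 2 genes was not tested. Bhlha15, encoding the secretory cell factor Mist1, reached 414 and 410 CPM from at most 97.6, Creb3l2 163 and 183 CPM from at most 43.1, and Ell2, the elongation factor that favours the secreted form of Ighm, 717 and 725 CPM from at most 197. Irf4 was higher than the mean (0.90 ± 0.12 SE, adjusted p = 0.009) but not above all, as 1132 and 1359 CPM in PB lay below the 3322 and 2432 CPM of B3, and the call was lost for Irf4 without PB replicate 2 (0.80, adjusted p = 0.0928), with library totals alone (0.61) and without the Naive stage (0.55, adjusted p = 0.576). Zbtb20 was not called, at 2.79 and 2.29 CPM.

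The B cell regulators moved mainly the other way. Of 16 tested, 9 were called lower, 7 of them below all, 1 higher and 6 not called (median -0.85). Calls over all genes tested were 18.3% lower and 23.3% higher. Spib, an Ets factor of B cells, was at 7.45 and 7.16 CPM in PB and 329 to 1740 elsewhere (log2 fold change -6.65 ± 0.16 SE, edgeR adjusted p = 1.2e-12). Id3, an inhibitor of E proteins, fell to 1.57 and 1.69 CPM from at least 28.3, and Pax5 to 9.11 and 7.76 CPM from at least 91.1 (-4.66 ± 0.19 SE, adjusted p = 4.8e-10). Bcl6, a repressor of the plasma cell program, was called lower but was not lowest in PB, where it had 9.57 and 8.82 CPM against 5.81 and 5.43 in Ab. Pou2af1, the coactivator OBF1, was the member that rose, to 2665 and 2818 CPM from at most 1361 (2.13 ± 0.07 SE). Foxo1, Ikzf1, Ikzf3 and Mef2c were not called, with log2 fold changes from -0.34 to 0.56.

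Beyond the lists, the genes with the largest rise at 32 CPM or more in PB included several that were low before Ab. Hid1, which acts at the trans-Golgi, was at 299 and 322 CPM in PB, 19.8 and 32.9 in Ab, 3.62 and 6.48 in B33 and at most 0.266 in the 6 earlier libraries, and its log2 difference from Ab was 3.57 ± 0.27 SE (edgeR adjusted p = 2.9e-06). Selenom, an ER selenoprotein, was at 73.1 and 78.2 CPM in PB and at most 2.31 elsewhere, a gap of 31.6-fold to the next library. Tmed6, of a family of cargo adaptors, was at 259 and 240 CPM in PB but already 65.2 and 77.3 in Ab. Papln, an extracellular matrix glycoprotein, Nuggc, a nuclear GTPase of germinal centre B cells, and Ckb, brain-type creatine kinase, had 56.2 and 43.5, 91.1 and 94.4, and 142 and 162 CPM in PB. For Papln no other library exceeded 3.21 CPM, for Nuggc 11.3 and for Ckb 28.2.

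**Figure D4:**
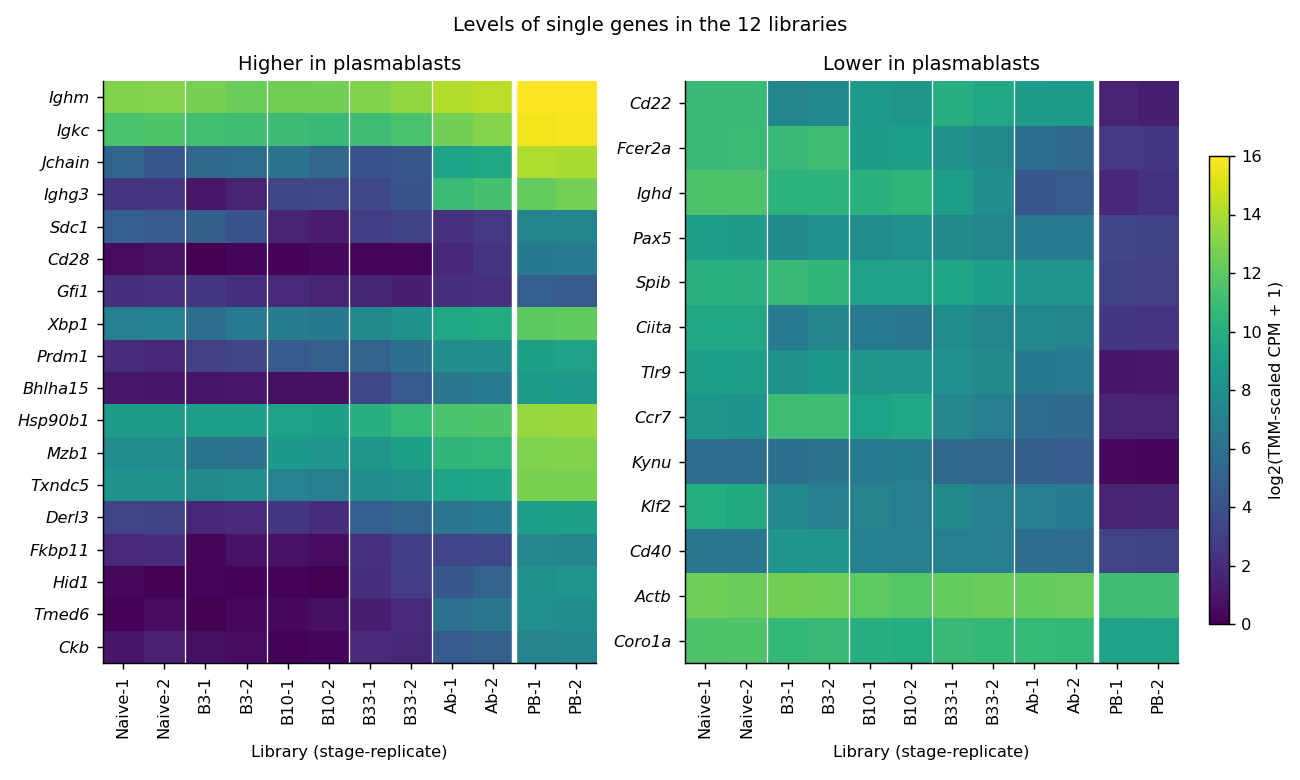
Colour gives log2(TMM-scaled CPM + 1) of each gene (vertical axis) in each of the 12 libraries (horizontal axis, stage and replicate), with the PB libraries to the right of the thick line. In the left panel PB is brightest throughout, and Ab is next for Ighg3 (1908 and 2646 CPM) and Jchain (609 and 781 CPM). In the right panel PB is darkest, with Kynu and Tlr9 at no more than 1.06 CPM.

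Of 17 genes listed for the plasmablast surface, 13 were called higher, 12 of them above all, 1 lower and 3 not called (median 2.25). Sdc1, whose rise follows from the gate, and the marker Cd28 are counted among the 17. Cd93, a receptor tied to plasma cell maintenance, was at 791 and 731 CPM in PB, 121 and 137 in Ab and 27.1 to 52.9 in the earlier libraries (log2 fold change 4.04 ± 0.07 SE, edgeR adjusted p = 1.7e-13). Tnfrsf17, the survival receptor BCMA, was at 6.1 and 7.02 CPM in PB and at most 0.148 elsewhere, with 4 stages at the floor. Ly6a (Sca-1) reached 728 and 887 CPM from at most 346. Cd38 was lower than the mean, at 21.2 and 20 CPM, yet B3 was lower still, at 14.7 and 12.6. Cd44, the hyaluronan receptor, was not called, with 300 and 287 CPM in PB and up to 938 in B3. Cd44 was called higher without B33 replicate 2 (0.72, edgeR adjusted p = 0.0276) and without the B3 stage (1.27, adjusted p = 1.3e-06).

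Several of the surface genes that rose are better known from T cells. Besides Cd28, the checkpoint receptor gene Ctla4 was at 134 and 131 CPM in PB, 4.78 and 8.97 in Ab and at most 1.5 in the earlier libraries, a log2 difference of 4.28 ± 0.32 SE from Ab (edgeR adjusted p = 2e-06). Tigit was at 70.6 and 77.6 CPM in PB against at most 12 elsewhere (4.96 ± 0.12 SE, edgeR adjusted p = 1.4e-12), and Lag3 at 32.6 and 30.4 CPM against at most 11.6 (3.40 ± 0.26 SE, adjusted p = 9.3e-07). The T cell list of 9 genes took 0.000164% and 0.000114% of counts in PB and 2.11e-05% to 0.000626% in the others, with Naive highest, and of its 6 tested genes 2 were called higher, 1 lower and 3 not. Cd3e had 0 counts in both PB libraries, and so did Cd8a, Themis and Trat1, while Cd3d had 5 and 4, Cd4 12 and 12, Cd3g 33 and 27, Cd8b1 1 and 0, and Zap70 2 and 2. Whether other cells contributed to the receptor values was not tested beyond these counts. Trac, a T cell receptor constant gene looked at after its values were seen, had 212 and 193 counts in PB against at most 39 elsewhere, and Trbc1 had 0. Of the myeloid list, Lyz2 and S100a8 had 0 counts in both PB libraries, and the whole list took 3.41e-05% and 5.82e-05% of counts there against 0.000243% to 0.0281% in the others.

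Of 16 tested homing receptor genes, 5 were called higher, 6 lower and 5 not called (median -0.15), beside 23.3% higher and 18.3% lower among all genes tested, so the share of higher calls was near that of all genes. Ccr10, a chemokine receptor of antibody-secreting cells that home to mucosa and skin, was at 32.3 and 44.3 CPM in PB, 5.63 and 9.24 in Ab and at most 0.291 in the earlier libraries (log2 fold change 6.51 ± 0.18 SE, edgeR adjusted p = 4.5e-12). Ccr9, a gut homing receptor, was at 20.8 and 15.7 CPM against at most 6.81, and Itga4, the integrin alpha 4 chain, at 678 and 656 CPM against at most 374. Cxcr4, the receptor for the bone marrow chemokine CXCL12, was called higher but overlapped, since 136 and 137 CPM in PB met 137 CPM in B3, and Cxcr4 was not called with library totals alone (0.89, adjusted p = 0.0584) or by DESeq2 (adjusted p = 0.0649), nor without the B33 stage (0.75, adjusted p = 0.202). In the other direction Ccr7, which directs cells to the T cell zone, was at 1.91 and 2.08 CPM in PB and 45.9 to 2108 elsewhere (-7.30 ± 0.21 SE, adjusted p = 1.8e-11). Cxcr5, the receptor for the follicle, was at 166 and 152 CPM against at least 242.

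Antigen receptor genes fell unevenly. Of 21 tested genes of the receptor, its coreceptors and its signalling, 13 were called lower, 11 of them below all, 4 higher and 4 not called (median -0.77). The share of higher calls was near the 23.3% of all genes tested, of which 18.3% were called lower. Cd22, whose fall follows from the gate, is among the genes called lower. Fcer2a, the IgE receptor CD23, was at 5.25 and 4.87 CPM in PB, 55.2 and 41.9 in Ab and 187 to 2058 before (log2 fold change -6.50 ± 0.23 SE, edgeR adjusted p = 3.5e-10). Bank1, a signalling scaffold, fell to 21.6 and 22.9 CPM from at least 166, and the inhibitory receptor Cd72 to 31.1 and 29.6 CPM from at least 115. Ms4a1 (CD20) fell by less, to 558 and 542 CPM from at least 849. The receptor's own signalling chains Cd79a and Cd79b were not called, with 1058 and 975 CPM and 859 and 928 CPM in PB and differences of -0.35 and -0.58 on the log2 scale. Cd81, a tetraspanin of the coreceptor complex, rose above all others, to 308 and 295 CPM from at most 169, and Blnk, an adaptor of the pathway, to 632 and 661 CPM from at most 455 (adjusted p = 0.0541 for Blnk with library totals alone). Cd79b was called lower with totals alone (-0.87).

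Of 13 MHC class II genes, 9 were called lower, 6 of them below all, and 4 not called (median -1.54). The share called lower among all genes tested was 18.3%. Ciita, the master activator of the class, was at 5.12 and 4.23 CPM in PB and 83.2 to 784 elsewhere (log2 fold change -5.37 ± 0.27 SE, edgeR adjusted p = 1.4e-08). The peptide-loading gene H2-Oa fell to 1.57 and 1.06 CPM from at least 15.6. The classical chains were less far down, with H2-Aa at 821 and 760 CPM in PB, below Ab (1299 and 1254) and far below Naive (8324 and 8332), but above B10 (662 and 530). Cd74, the invariant chain, was not called, at 8750 and 8966 CPM in PB against 4277 to 31490 elsewhere (-0.36 ± 0.09 SE, adjusted p = 1). In share of counts the class stood at 0.835% and 0.823% in PB and 0.63% to 4.94% in the other libraries, and the difference of means did not pass (two-sided exact permutation test, p = 0.182, adjusted p = 0.182).

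Costimulatory and activation receptors gave 6 of 13 tested genes called lower, 5 of them below all, 2 higher and 5 not called (median -1.0). All genes tested gave 18.3% lower and 23.3% higher, with 12.6% both called lower and below all. Cd86, a ligand of CD28, was at 3.98 and 3.14 CPM in PB against 17.4 to 297 elsewhere (log2 fold change -4.08 ± 0.17 SE, edgeR adjusted p = 2.5e-10). Cd40, the receptor for T cell help, was at 8.89 and 7.94 CPM against at least 50.6, and Cd83 at 106 and 88.8 CPM against at least 179. Icosl, the ligand of ICOS, was called lower with 1.65 and 2.36 CPM in PB, but Ab was lower still at 1.53 and 1.47. Cd24a and Il2ra were called higher against the mean while Ab exceeded PB for Cd24a (1967 and 1849 against 1582 and 1531 CPM) and B3 for Il2ra (705 and 625 against 107 and 109 CPM). Neither call held with library totals alone (adjusted p = 0.0559 for Cd24a and 0.0667 for Il2ra), and without the Naive stage Il2ra was at 0.02 (adjusted p = 1).

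The genes with the largest fall, among those with at least 32 CPM on average in the other stages, reached deeper than most list members. Tlr9, a sensor of bacterial DNA, was at 0.932 and 1.06 CPM in PB, 86.5 and 93.6 in Ab and 190 to 493 in the earlier libraries (log2 fold change -8.02 ± 0.22 SE, edgeR adjusted p = 9.6e-12). Kynu, kynureninase of tryptophan breakdown, was at 0.254 and 0.141 CPM against at least 22.8. Sorl1, a sorting receptor, B3gnt5, a glycosphingolipid enzyme, and Klf2, a quiescence factor, fell to 1.99 and 1.34, 0.339 and 0.67, and 1.95 and 2.12 CPM. Their lowest values elsewhere were 55.7, 15.3 and 97.2 CPM. Mpeg1, perforin-2, was at 0.889 and 1.2 CPM against 25.9 to 145 elsewhere. Whether other cells contributed to these values was not tested.

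The lower genes with the most counts elsewhere fell by less. Actb, beta-actin, was at 2109 and 2173 CPM in PB against 3558 to 6118 elsewhere (log2 fold change -1.23 ± 0.08 SE, edgeR adjusted p = 5.7e-07). The actin regulators Lcp1 and Coro1a were at 296 and 279 CPM and at 603 and 599 CPM, against at least 1034 and 942, and Myh9, non-muscle myosin, at 501 and 553 CPM against at least 851. Swap70, an actin-binding signalling protein of B cells, fell to 255 and 246 CPM from at least 636. The others were Ncl (nucleolin) at 1106 and 1093 CPM, where Naive was nearest at 1313 and 1352, the RNA-binding Serbp1 at 573 and 566 CPM, and the fatty acid desaturase Scd1 at 507 and 496 CPM.

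Proliferation genes show what the mean of stages can hide. All 30 genes of a mitosis list were called higher than the mean (median log2 fold change 2.71), but only Mki67 and Anln were above all other libraries. Mki67, the proliferation antigen Ki-67, was at 1845 and 1795 CPM in PB, 1495 and 1511 in Ab, 848 and 1226 in B33 and 27.6 to 69.3 in the 6 libraries of Naive, B3 and B10. Against Ab the list had a median of -0.29, none of its genes was higher and 1 was lower, Kif23, a kinesin of cytokinesis, at 51.9 and 53.5 CPM against 111 and 112 (-1.08 ± 0.18 SE, edgeR adjusted p = 0.0096). The list took 0.451% and 0.436% of counts in PB, 0.65% and 0.641% in Ab, 0.402% and 0.596% in B33, on either side of PB, and 0.0161% to 0.0388% in Naive, B3 and B10.

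Few proteasome or ribosomal protein genes were called against the mean, beside 23.3% called higher and 18.3% lower among all genes tested. Of 31 proteasome genes, 1 was called higher, Psmb4 at 499 and 488 CPM against at most 396 (0.74 ± 0.06 SE, edgeR adjusted p = 0.013), and none lower (median 0.10, against -0.03 for all genes tested). This mean joined opposite differences, since the proteasome median was 0.95 against Naive and -0.26, -0.27 and -0.24 against B10, B33 and Ab. The proteasome genes took 0.437% and 0.442% of counts in PB, 0.276% and 0.282% in Naive, and 0.63% to 0.739% in B10, B33 and Ab. Psmb4 was not called without the Naive stage (0.55, adjusted p = 0.693). Of 74 cytosolic ribosomal protein genes, 1 was called higher, Rplp0 at 5078 and 5300 CPM against at most 4308 (0.68 ± 0.05 SE, adjusted p = 0.035), and none lower (median 0.10). Ribosomal protein genes took 2.94% and 3.05% of counts in PB and 2.62% to 3.68% in the other libraries. With libraries scaled by totals alone both medians turned negative, to -0.19 for the proteasome and for the ribosomal proteins, beside the shift of all genes to -0.32, and neither Psmb4 (0.45) nor Rplp0 (0.39) was called. Rplp0 also lost its call without any of 8 single libraries, at 0.64 to 0.69.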

How the data were processed

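RNA-seq covered 12 libraries of mouse B cells, 2 for each of 6 stages. Libraries were made with a TruSeq RNA kit from polyA RNA, and per the methods the authors aligned reads to mm10 with Rsubread and assigned them to its built-in gene models by featureCounts. The submitters' processing notes also name CASAVA 1.8.2. The values deposited by the authors are raw counts, neither normalized nor filtered, with 27179 genes, and the 12 single-sample files equal the table of the series.

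Symbols, classes and mm10 coordinates came from a RefSeq table, which matched 25275 IDs. Removed were 1904 unmatched IDs, 1279 X and Y genes, 15 mitochondrial genes, 33 ribosomal RNA genes and 248 immunoglobulin variable segments after the published methods, and edgeR's filterByExpr kept 12750 of 23700 genes. Shares use all counts of a library as denominator.

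Libraries were scaled with TMM and fitted with edgeR 4.0.16 (R 4.3.3, limma 3.58.1, robust quasi-likelihood, one-way layout, common biological coefficient of variation 0.0989). The contrast set PB against the unweighted mean of the 5 other stage coefficients, tested by glmTreat at 1.5-fold with Benjamini-Hochberg adjustment at 0.05 over all genes tested. SE is that of the log2 fold change. RPKM use the deposited exon lengths. Shares of 3 gene groups were compared by exact permutation over the 12 libraries (Python 3.11.15, scipy 1.17.1, matplotlib 3.10.9). The permutation treats the 12 libraries as exchangeable, although the other 10 come from 5 stages. Promoter windows of 250 bases and exons came from RefSeq and GENCODE on GRCm38.p6.

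Members and gene lists were chosen with earlier results of these data known. Single genes were named by rule: the 4 markers, the 12 largest rises and falls at 32 CPM or more, the 8 most abundant in either direction, the genes at the limit of no overlap, and members that show how each list varies. Trac, Trbc1, Adcy3, Hnrnpa3 and Pan2 were named after their values were seen. A few genes that the rule names are not reported here. The fit was tested on simulated data. Alternatives were other scalings, filters and tests (DESeq2 1.42.0 among them), a replicate block, leaving out each library and, added after seeing the data, each other stage.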

Additional observations from a re-analysis of the deposited data

Results flagged for a closer look

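The 248 immunoglobulin variable segments were removed before the comparisons and took 5.12% of counts in PB replicate 1 and 5.19% in PB replicate 2. They were singled out because they lie outside the genes tested and stood above every library of the other 5 stages, where they took 0.242% to 1.28%, with Ab highest at 1.13% and 1.28%. No segment dominated. The most abundant, a kappa segment, held 5.92% and 6.28% of the variable counts in PB against 2.76% to 4.63% in the other libraries, and the next, also a kappa segment, held 3.92% and 4.45% against 1.37% to 3.15%. Reads of related segments may be divided by the counting, which was not tested.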

How the results depend on the processing

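With no fold threshold (F-test) 4724 genes were higher and 4615 lower, against 2969 and 2336. With libraries scaled by totals alone 3647 were lower and 3288 below all others (2148 with TMM), while 2314 were higher. Asking for a gap of at least 1.5-fold to the nearest library left 1192 genes above all of 2465 and 671 below all. DESeq2's Wald test gave 2600 higher and 1748 lower, at least 10 counts in every library 2144 and 1791, and leaving out a whole stage 2892 to 3143 and 2093 to 2632. Leaving out 1 library gave 2764 to 3097 higher, 1825 to 2542 lower, 2439 to 2861 above all, 2182 to 2421 below all and 246 to 262 list members called (258 with all libraries). The share differences were 9.61 to 10 points for immunoglobulin (9.81 with all libraries), 6.76 to 7.01 for secretory genes (6.84) and -1.59 to -1.11 for MHC class II. With 11 libraries the adjusted p of the first 2 shares could go no lower than 0.0545 without another library or 0.273 without a PB library, and stood there, so leaving out any 1 library ended both calls by design. Same-numbered replicates did not deviate together (correlations -0.139 to 0.084), and with the replicate block 2966 genes were higher and 2329 lower, of which 2951 and 2310 were the same genes. Of 140 genes named, 110 kept their side of the threshold under each of the 28 alternatives that gave them a value, and no called gene changed sign. The median of the mitosis list was 2.06 without B3, 3.39 without B33 and 3.48 without Ab (2.71 in all), and that of amino acid transporters 0.31 without Naive (0.97). Genes under about 0.13 CPM rest on 3 counts or fewer in the smallest library.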
